A study of Mus musculus with 13 samples.

Results

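P2ry14, P2ry6, P2rx4, P2rx7 and Entpd1 were followed here across the myeloid cells of the mouse spinal cord in health and in experimental autoimmune encephalomyelitis (EAE), a mouse disease in which the immune system attacks myelin. They are 5 of the 22598 genes measured, taken by name, and all 5 were detected in the Microglia, Macrophage and Monocyte classes of the deposited cell annotation. P2ry14 was chosen by its measured rise in EAE over control cells, and the other 4 as related receptors and an enzyme that acts on their ligands. Its values in EAE against control are therefore given as a description without a test, and only its other contrasts were tested.

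Nucleotides that leave stressed or dying cells act as danger signals, and microglia and macrophages sense them through purinergic receptors. P2X receptors are ATP-gated cation channels, whereas P2Y receptors couple to G proteins. The P2Y receptors of this group respond to uridine nucleotides, with P2RY14 sensing UDP-sugars such as UDP-glucose and P2RY6 sensing UDP, which prompts microglia to engulf material. CD39, the product of Entpd1, is an ectoenzyme that breaks down extracellular ATP and ADP and so limits how long such signals last.

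All cells came from mice of the Cx3cr1YFPCreERT2:R26tdTomato line, controls included. Tamoxifen activates a Cre enzyme made under the Cx3cr1 promoter, which switches on tdTomato for good. Blood monocytes lose the mark as they are replaced, while long-lived cells of the cord keep it, so the mark reports lifespan and is not specific to microglia. Ages, doses and the immunisation scheme were not given in the sources used here. Resident-gate cells came from controls (3 libraries), peak EAE (2 libraries) and chronic EAE (3 libraries), and infiltrating-gate cells from peak EAE (2 libraries) and chronic EAE (3 libraries). The labels call the libraries of a group biological replicates but do not say whether both gates were sorted from the same animals. The letters a, b and c only name the libraries within a group, since the deposited cell table does not carry the replicate numbers of the labels. That table labels control libraries a and b as peak-stage controls and library c as a chronic-stage control. All 3 were used as a single control group for both stages of EAE.

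The 13 libraries held 22148 cells and 116091839 unique molecular identifiers (UMIs, each standing for 1 captured RNA molecule), with library totals from 4111257 to 22450385 UMIs. UMIs were summed over the cells of a class in each library, and a sum of fewer than 20 cells was left out, which removed the 11 microglia of chronic infiltrating library a. A difference between such sums does not tell fewer expressing cells from less RNA per cell. Levels are CPM (UMIs per 1e6 UMIs of the sum) scaled by TMM, a factor that sets the bulk of genes equal between sums. The deposited classes were checked against their markers. Microglia sums carried all 10 microglial markers, with summed levels of 15689 to 21540 CPM in control, 6502 to 8564 CPM in peak EAE and 12427 to 14696 CPM in chronic EAE. Infiltrating-gate macrophages carried macrophage markers at 3445 to 5295 CPM in chronic EAE and 2773 to 4500 CPM in peak EAE. Of these 10 markers 2 or 3 were at 0 in chronic sums and 3 in peak sums. The same sums held monocyte markers at 205 to 3817 CPM in chronic and 3721 to 8168 CPM in peak EAE. Monocytes held monocyte markers at 3753 to 8408 and 9532 to 15778 CPM, and macrophage markers at 548 to 1677 and 1179 to 1582 CPM. These markers thus did not separate the macrophage and monocyte classes cleanly. Of the labelled groups, 2 stood apart. Chronic infiltrating library b was 81.2% microglia despite its gate, and the 50 resident-gate macrophages of peak EAE had macrophage markers at only 13.4 to 233 CPM, with 6 or 7 of 10 at 0 (Mrc1, Cd163, Lyve1, Pf4, Cbr2 and Folr2 in both libraries), beside microglial markers at 5521 to 6142 CPM. No group was compared with these 50 cells, but their 2 sums took part in the macrophage fit and its estimate of the spread. With sums of at least 50 cells, which left them out, the stage contrast of macrophages had 1 called gene and the gate contrast 0, as with them. The same cell barcode occurred in more than 1 library for 55 barcodes.

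P2ry14 lies on chromosome 3 (GRCm38, 59113855 to 59153618, minus strand), in a run of receptor genes with P2ry13, P2ry12 and Gpr171. The whole run sits inside Med12l, which is transcribed from the opposite strand. P2rx7 (chromosome 5, 122643911 to 122691432) and P2rx4 (122707544 to 122729738) are neighbours on the plus strand with 16111 bases between them. P2ry6 lies on chromosome 7 (100937630 to 100974649, minus strand) and Entpd1 on chromosome 19 (40612366 to 40741602, plus strand). The 250 bases before the start site are printed for P2ry14, at the first of its 4 annotated sites, and for P2rx4, since these were the 2 members with higher levels in EAE microglia. Both come from RefSeq on GRCm38.p6, at chr3:59153493-59153742 on the minus strand and chr5:122707294-122707543 on the plus strand. The gene spans above come from GENCODE. The P2ry14 span ends at 59153618, so part of its printed window lies inside that span. Capitals mark the letters GGAA or TTCC, the core recognised by ETS factors such as the myeloid factor PU.1.

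P2ry14: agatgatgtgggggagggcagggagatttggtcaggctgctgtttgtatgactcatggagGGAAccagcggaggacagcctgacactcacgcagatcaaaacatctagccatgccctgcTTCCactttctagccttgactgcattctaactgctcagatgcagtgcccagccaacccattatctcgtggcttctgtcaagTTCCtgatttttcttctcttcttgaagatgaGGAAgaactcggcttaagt
P2rx4: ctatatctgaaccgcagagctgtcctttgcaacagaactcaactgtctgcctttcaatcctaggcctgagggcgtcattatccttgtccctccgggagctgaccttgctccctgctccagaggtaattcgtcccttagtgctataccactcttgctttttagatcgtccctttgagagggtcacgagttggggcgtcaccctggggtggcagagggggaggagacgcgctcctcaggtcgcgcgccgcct

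The P2ry14 window held 4 ETS cores and the P2rx4 window 0, and 93.4% of all 32851 windows of this length held at least 1. Longer motifs were searched on both strands with overlaps allowed. The interferon-gamma site TTCNNNGAA occurred in 7.02% of all windows, the interferon-stimulated core (GAAA, any 2 bases, GAAA) in 2.98%, the PU.1 core GAGGAAGT in 2.44% and the NF-kB letters (GGG, any 2 bases, TTTCC) in 1.41%. None of these 4 was present in any window of P2ry14, P2rx4, P2rx7 or Entpd1, with 9 windows in all, which says only that these letters are not in these stretches.

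P2ry14 was close to undetected in control microglia and was present in every EAE sum of all 3 classes. Control microglia held 0.572, 0.884 and 0.151 CPM, from 5, 7 and 2 UMIs. Microglia of peak EAE held 111 and 101 CPM, and those of chronic EAE 62.7, 49.7 and 34.0 CPM. The control microglia gave 14 P2ry14 UMIs among 22540608, or 0.621 unscaled CPM with an exact 95% Poisson interval of 0.34 to 1.04, which covers counting error only. The contrast had the same direction inside the pools that held both groups, at 111 and 101 CPM in peak EAE against 0.884 CPM in control library b (pool C), and at 34.0 CPM in chronic EAE library c against 0.151 CPM in control library c (pool B). Pools are not batch dates. In pool C, control library b shared its batch date with peak resident library b but not with library a. No EAE library overlapped the controls, and the fitted log2 difference was 7.79 at the peak and 6.58 in the chronic phase. These differences come from the contrast that chose the gene and share their control libraries, so nothing is read from them.

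The level of P2ry14 differed between the 2 disease stages, a contrast not used to choose it. It was lower in chronic than in peak EAE microglia by a log2 fold change of -1.21 ± 0.29 (SE; edgeR quasi-likelihood test, adjusted p = 0.011), with none of the 3 chronic libraries reaching the 2 peak ones. Among all 11154 genes tested, 21.6% were called in this contrast, 8.98% higher and 12.6% lower, and P2ry14 was the only member called. The call was lost without peak resident library a (-1.06, adjusted p = 0.12) or b (-1.21, adjusted p = 0.051). No sequencing pool held libraries of both stages, so the pools of the 2 stages are linked only through control libraries b and c. In pool C peak EAE held 111 and 101 CPM, against 0.884 CPM in control library b (7 UMIs). In pool B chronic EAE held 34.0 CPM, against 0.151 CPM in control library c (2 UMIs). The stage contrast with pool as a term, and the part of pool in it, were not tested.

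Infiltrating cells carried P2ry14 at levels near those of microglia of the same stage. Macrophages held 61.2, 68.4 and 32.7 CPM in chronic EAE, against 112 and 122 CPM in peak EAE. Monocytes held 54.7, 50.0 and 32.2 CPM in chronic EAE, against 93.8 and 85.9 CPM in peak EAE. In both classes each chronic library was below each peak library, as in microglia, but neither difference passed the test. The log2 difference was -1.08 ± 0.33 (SE) in macrophages (edgeR, adjusted p = 0.33; 0.36 without the resident-gate macrophages of peak EAE) and -0.92 ± 0.34 in monocytes (edgeR, adjusted p = 0.45). In these contrasts only 0.0115% of 8703 genes (macrophages) and 0.101% of 7920 genes (monocytes, 0.0758% higher) were called. The chronic-minus-peak difference in macrophages was larger by 0.055 ± 0.50 on the log2 scale than that in microglia (edgeR interaction, adjusted p = 1.00), an SE too large to call the stage effects alike. In that contrast 0.0262% of 11460 genes were called, all of them lower, and 0 of the members (adjusted p of 0.97 or more for each).

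Between classes at 1 stage, macrophages exceeded microglia in P2ry14 by 0.13 ± 0.39 at the peak (edgeR, adjusted p = 0.83) and 0.18 ± 0.32 in the chronic phase (edgeR, adjusted p = 0.72), neither of which passed. With scaling by library size alone both differences changed sign, to -0.19 and -0.091. Macrophages exceeded monocytes of the same libraries by 0.31 ± 0.10 (edgeR with library as a block, adjusted p = 0.044), a small difference that was lost with DESeq2 (adjusted p = 0.18), with scaling by library size alone (adjusted p = 0.098) and without a block (adjusted p = 0.95). When 1 of the 5 libraries was left out the call was lost in 4 of 5 cases (0.23 to 0.35, adjusted p from 0.018 to 0.22) and was kept only without chronic infiltrating library c. The order of group means ran from peak macrophages (117 CPM) through peak microglia (106 CPM) and peak monocytes (89.9 CPM) to chronic macrophages (54.1 CPM), chronic microglia (48.8 CPM), chronic monocytes (45.6 CPM) and control microglia (0.536 CPM). The 3 chronic groups overlapped each other in their library values, whereas neighbouring peak groups, of 2 libraries each, did not overlap. With scaling by library size alone peak macrophages (90.7 to 114 CPM) and peak microglia (101 to 132 CPM) did overlap. T cells of the same sort, a class in which little of a myeloid gene is expected, gave 14.7, 8.24 and 11.2 CPM of P2ry14 in chronic infiltrating libraries, from 2, 2 and 3 UMIs, and 4.06 and 5.99 CPM in peak infiltrating libraries, from 5 and 3 UMIs.

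**Figure D1:**
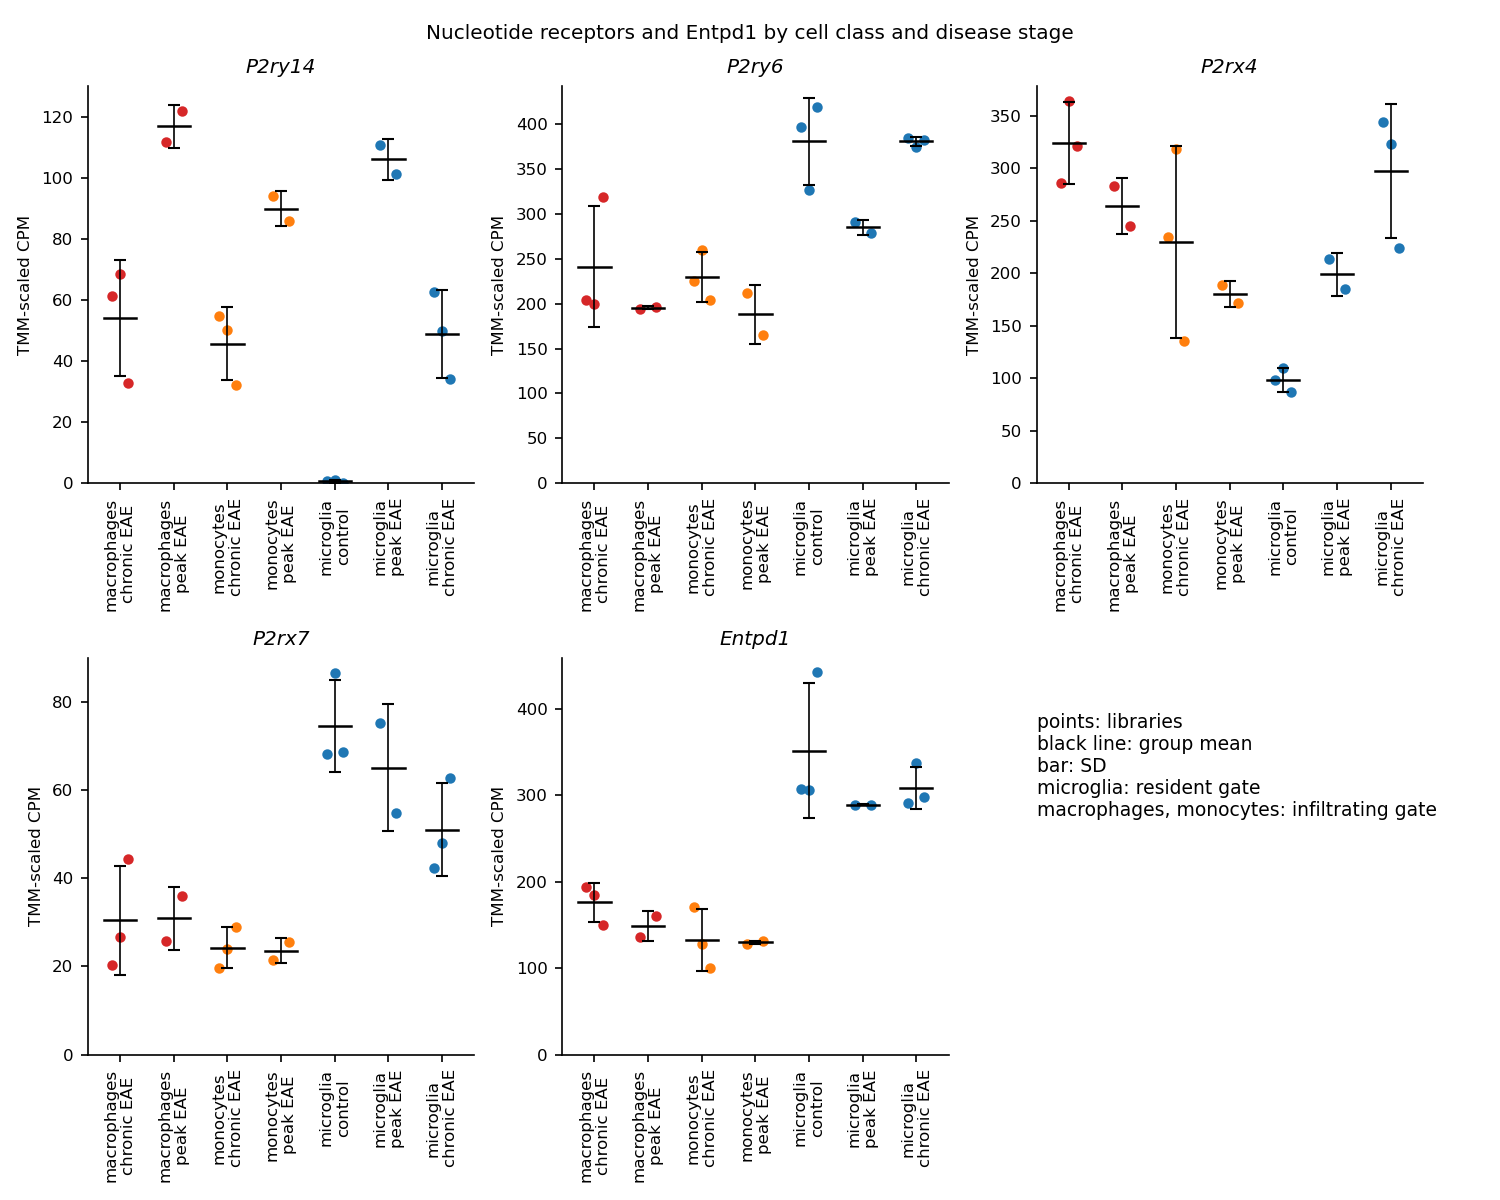
TMM-scaled CPM (y axis) of the 5 genes in each library (points) of 7 groups (x axis), with the group mean (black line) and SD (bar). P2ry14 is at 0.536 CPM on average in control microglia and between 45.6 and 117 CPM in the EAE groups, P2rx4 is lowest in control microglia (98.1 CPM), and P2rx7 and Entpd1 have their highest means in microglia.

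Within microglia, P2ry14 was present in each of the deposited clusters that EAE cells occupied. These clusters were built from the same cells' expression, so their levels are described and not tested. Cluster 9 held 92.2% of control microglia, clusters 3 and 4 held 61.5% and 30.0% of peak EAE microglia, and clusters 1, 4 and 3 held 42.0%, 38.7% and 17.6% of chronic EAE microglia. Values of control and EAE cells of 1 cluster come from the contrast that chose P2ry14 and rest on few control UMIs, so nothing is read from them. In cluster 3 the means were 7.01 CPM in control (2 libraries, 66 cells, 4 UMIs), 133 CPM in peak EAE and 72.9 CPM in chronic EAE. Cluster 1 gave 57.0 CPM in chronic EAE, against 1.71 CPM in control, where 224 cells held 2 UMIs. In the control-dominated cluster 9, the only chronic library with enough cells (22 cells, 3 UMIs) gave 32.1 CPM, against 0.178 CPM in control.

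**Figure D2:**
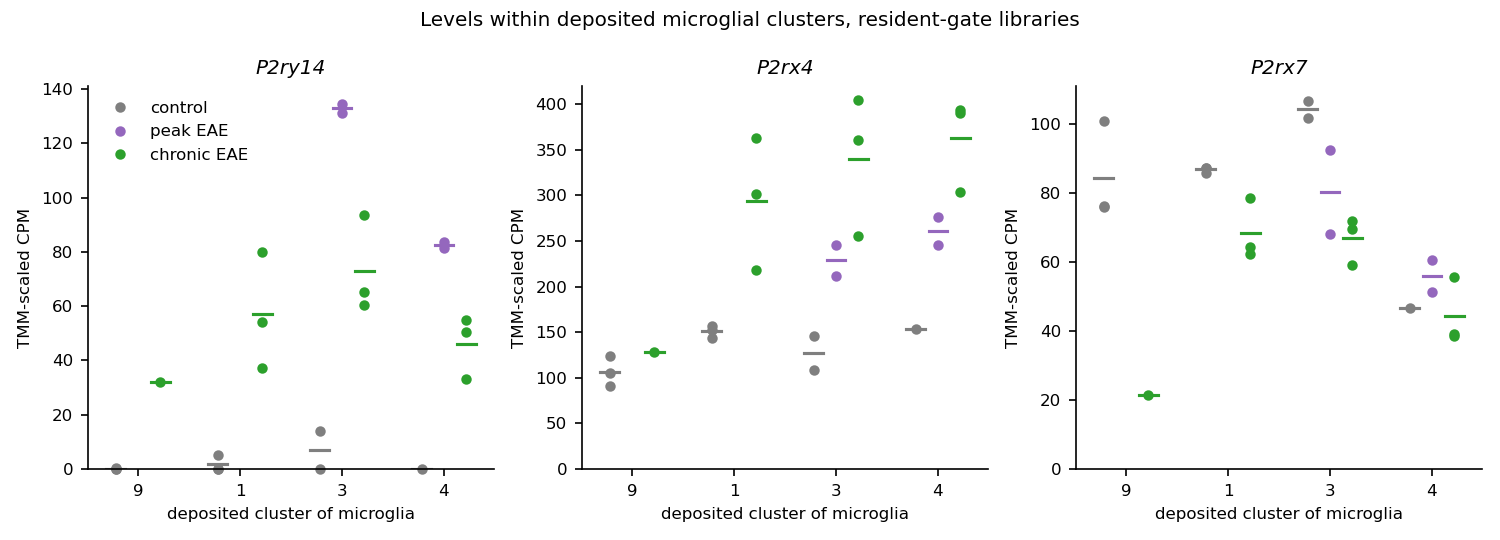
TMM-scaled CPM (y axis) of P2ry14, P2rx4 and P2rx7 in 4 deposited microglial clusters (x axis), 1 point per resident-gate library with at least 20 cells and a line at the mean. Control points of P2ry14 lie at or near 0 in each cluster, with a mean of 7.01 CPM in cluster 3 as the highest, P2rx4 is higher in EAE than in control cells of clusters 1, 3 and 4, and P2rx7 is lower in chronic EAE than in control cells of clusters 1 and 3.

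P2ry6, the UDP receptor, was expressed in all 3 classes and was not called in any of the comparisons as fitted here, though some alternatives did call it. Microglia held 397, 327 and 419 CPM in control, 291 and 279 CPM in peak EAE and 385, 375 and 383 CPM in chronic EAE. The peak libraries were thus below every control and chronic library. The peak against control difference was -0.37 ± 0.23 (SE; edgeR, adjusted p = 0.24), which became -0.70 and a call with scaling by library size alone (adjusted p = 0.020). Under that scaling the median of all genes moved to -0.33 in this contrast, from 0.01 with TMM, so that the value relative to the median was nearly the same. The corresponding medians were -0.50 for chronic EAE against control, and -0.39 and -0.35 for macrophages against microglia at the peak and in the chronic phase. Inside clusters, which were not tested, P2ry6 averaged 571 CPM in chronic EAE, against 412 CPM in control cells of cluster 1. In cluster 3 it averaged 343 CPM in control, 370 CPM in peak EAE and 522 CPM in chronic EAE. In cluster 4 it averaged 142 CPM in peak and 296 CPM in chronic EAE, against 308 CPM in 1 control library.

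P2ry6 values of infiltrating cells lay below those of microglia in most libraries, and in no contrast did the difference pass as fitted here. Macrophages had 205, 199.9 and 319 CPM in chronic EAE, and 195 and 197 CPM at the peak. Monocytes had 225, 260.1 and 205 CPM in chronic EAE, against 212 and 165 CPM at the peak. Macrophages stood below microglia by -0.65 ± 0.23 in chronic EAE (edgeR, adjusted p = 0.052) and by -0.55 ± 0.28 at the peak (edgeR, adjusted p = 0.16). The chronic difference was a call with DESeq2 (adjusted p = 0.012), with scaling by library size alone (adjusted p = 0.0089), with pool as a term (-0.68, adjusted p = 0.012) and without chronic infiltrating library c (-0.89, adjusted p = 0.0093). Within pools the macrophages had 205 and 199.9 CPM, against 385 and 375 CPM in microglia of pool D, and 319 CPM, against 383 CPM in pool B. T cells gave 5 P2ry6 UMIs among 1636323 in the peak infiltrating libraries, or 3.06 unscaled CPM. By group mean P2ry6 ran from chronic and control microglia (both 381 CPM) and peak microglia (285 CPM) to chronic macrophages (241 CPM), chronic monocytes (229.8 CPM), peak macrophages (196 CPM) and peak monocytes (188 CPM). Neighbours in this order overlapped, except control with peak microglia and chronic monocytes with peak macrophages.

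P2rx4, a channel tied in rodent spinal microglia to pain after nerve injury, rose in EAE microglia. It reached 213 and 185 CPM in peak EAE and 344, 323 and 224 CPM in chronic EAE, against 98.4, 109.6 and 86.4 CPM in control. Every EAE library was above every control library. The log2 fold change was 1.07 ± 0.25 (SE) at the peak (edgeR quasi-likelihood test, adjusted p = 0.0051) and 1.56 ± 0.23 in the chronic phase (edgeR, adjusted p = 0.00022). At the peak 29.3% of 11154 genes were called against control, 16.2% higher and 13.1% lower. In the chronic phase 28.1% were called, 14.7% higher and 13.3% lower. With scaling by library size alone the higher share of all calls moved to 29.4%, from 55.4% with TMM, at the peak, and to 17.6%, from 52.5%, in the chronic phase. Of the 4 members other than P2ry14, P2rx4 was the only one called in either contrast, and both contrasts share their control libraries. Chronic exceeded peak EAE by 0.49 ± 0.26 (edgeR, adjusted p = 0.18), which became a call without chronic resident library c (0.72, adjusted p = 0.044).

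Within sequencing pools the direction of P2rx4 was the same. In pool C it was 213 and 185 CPM in peak EAE, against 109.6 CPM in control library b, and in pool B it was 224 CPM in chronic EAE library c, against 86.4 CPM in control library c. With pool as a term the fold changes were 0.87 and 1.37. That fit leaves 1 control library to each contrast, b at the peak and c in the chronic phase, so only the size is given. The peak call alone was lost without peak resident library a (0.93, adjusted p = 0.051). Inside clusters, P2rx4 averaged 294 CPM in chronic EAE, against 151 CPM in control cells of cluster 1. In cluster 3 it averaged 127 CPM in control, 229 CPM in peak EAE and 340.1 CPM in chronic EAE.

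Markers of other cell types moved with these contrasts. Summed monocyte markers in the microglia sums were at 4.84 to 8.59 CPM in control, 59.8 to 110.1 CPM in peak EAE and 82.7 to 298 CPM in chronic EAE (9 genes measured). Summed macrophage markers were at 2.78 to 4.69, 15.6 to 48.2 and 245 to 645 CPM in the same order (10 genes measured). Monocytes themselves carried the monocyte markers at 9532 to 15778 CPM at the peak, where their P2ry14 was 93.8 and 85.9 CPM, and infiltrating macrophages the macrophage markers at 3445 to 5295 CPM in chronic EAE, where their P2rx4 was 286 to 364 CPM. In chronic EAE microglia Lyve1, in all 3 libraries, and Cd163, in libraries a and b, were at 0, and in peak EAE microglia Cd163, Lyve1 and F13a1 were at 0 in both libraries. Summed T cell markers stayed at or under 7.31 CPM in the resident-gate microglia. In chronic against peak EAE microglia 3 of 5 oligodendrocyte markers were called higher (median 2.62, beside -0.041 over all genes), and their sums were at 82.2 to 121 CPM in control, 43.4 to 45.1 CPM in peak EAE and 67.5 to 125 CPM in chronic EAE. Of 5 astrocyte markers 3 were called higher in that contrast, where 8.98% of all genes were called higher. The astrocyte marker sums were at 85.7 to 98.2, 146 to 191 and 120.0 to 223 CPM in the same order. The part of these markers in the P2ry14 and P2rx4 values was not tested. Median UMIs per cell were also higher in the peak resident libraries (8614 and 8648) than in the control (3020 to 4477) and chronic resident ones (2558 to 3560), as was the median mitochondrial share, at 2.30% and 2.65% in peak EAE, against 1.09% to 1.46% in control. Their part in the result was not tested.

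Infiltrating cells carried P2rx4 at levels that overlapped those of EAE microglia. Macrophages had 286, 364 and 321 CPM in chronic EAE, against 283 and 245 CPM at the peak. Monocytes had 234, 318 and 135 CPM in chronic EAE, against 189 and 171 CPM at the peak. Neither stage difference passed (edgeR, adjusted p = 0.76 in macrophages and 0.82 in monocytes). P2rx4 was higher in macrophages than in monocytes of the same libraries by 0.53 ± 0.13 (edgeR with library as a block, adjusted p = 0.011), in 5 of 5 libraries. In this contrast 20.2% of 8357 genes were called, 9.81% higher and 10.4% lower, with 3 members (P2ry14, P2rx4 and Entpd1) among the higher ones. With scaling by library size alone the higher share of all calls was 34.7%, in place of 48.7% with TMM. The P2rx4 call was lost without peak infiltrating library a (adjusted p = 0.063) and without the block (adjusted p = 0.57). Macrophages exceeded microglia by 0.40 ± 0.28 at the peak and 0.13 ± 0.23 in the chronic phase, neither of which passed (edgeR, adjusted p = 0.32 and 0.72). The chronic difference was -0.13 with scaling by library size alone. The group means ran from chronic macrophages (324 CPM) and chronic microglia (297 CPM) through peak macrophages (264 CPM), chronic monocytes (229 CPM), peak microglia (199 CPM) and peak monocytes (180.1 CPM) to control microglia (98.1 CPM), and the last step was the only one between neighbours that did not overlap.

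P2rx7, the ATP receptor that leads to inflammasome activation and interleukin-1 beta release, had its highest mean in control microglia. Microglia held 68.3, 86.8 and 68.8 CPM in control, 75.4 and 55.0 CPM in peak EAE and 42.4, 48.2 and 62.8 CPM in chronic EAE. All 3 chronic libraries were below all 3 controls, but the difference of -0.58 ± 0.22 (SE) did not pass (edgeR, adjusted p = 0.064). It was a call without chronic resident library c (-0.72, adjusted p = 0.016), over all cells of the libraries (-0.62, adjusted p = 0.049) and with scaling by library size alone (-1.01, adjusted p = 0.0084), where the median of all genes was itself at -0.50. With pool as a term, which leaves only control library c to this contrast, the difference was -0.29. In pool B the chronic value was 62.8 CPM, against 68.8 CPM in control.

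At the peak, P2rx7 was lower in infiltrating macrophages than in microglia. Macrophages had 25.9 and 36.0 CPM, against 75.4 and 55.0 CPM in peak EAE microglia. The difference was -1.10 ± 0.34 (edgeR, adjusted p = 0.027), in a contrast in which 26.4% of 11460 genes were called, 12% higher and 14.4% lower. The higher share of all calls was 45.6% with TMM and 29.0% with scaling by library size alone. It was lost without peak resident library a (-0.85, adjusted p = 0.19) or peak infiltrating library a (-0.90, adjusted p = 0.22). In the chronic phase macrophages had 20.3, 26.7 and 44.3 CPM, against 42.4, 48.2 and 62.8 CPM in microglia, and the difference of -0.78 ± 0.28 did not pass (edgeR, adjusted p = 0.060), with library values that overlapped over all pools. Inside each pool macrophages were below microglia, at 20.3 and 26.7 CPM against 42.4 and 48.2 CPM in pool D and at 44.3 CPM against 62.8 CPM in pool B. With pool as a term, an alternative chosen after the data were seen, the chronic difference was a call (-0.79 ± 0.20; edgeR, adjusted p = 0.0082) and the peak one stayed a call (-0.90 ± 0.26; edgeR, adjusted p = 0.024). At the peak, pool C held 36.0 CPM in macrophages, against 75.4 and 55.0 CPM in microglia. The chronic difference was also a call without chronic infiltrating library c (-1.11, adjusted p = 0.0089) and with scaling by library size alone. Monocytes were at 19.7, 24.0 and 29.0 CPM in chronic EAE and 21.5 and 25.6 CPM at the peak. The order of P2rx7 group means was control, peak and chronic microglia (74.6, 65.2 and 51.1 CPM), then macrophages (31.0 CPM at the peak and 30.5 CPM in the chronic phase) and monocytes (24.2 CPM in the chronic phase and 23.6 CPM at the peak), and apart from the step between chronic microglia and peak macrophages all neighbours overlapped.

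Entpd1, which encodes the ATP-degrading enzyme CD39, was lower in infiltrating macrophages than in microglia at both stages. At the peak it was at 137 and 161 CPM in macrophages, against 288 and 289 CPM in microglia. The fold change was -0.97 ± 0.27 (SE; edgeR, adjusted p = 0.018). In chronic EAE it was at 193, 184 and 150.1 CPM in macrophages, against 291, 337 and 298 CPM in microglia, a fold change of -0.79 ± 0.22 (edgeR, adjusted p = 0.019). The groups did not overlap at either stage. With pool as a term both differences were calls (-0.92 and -0.80; edgeR, adjusted p = 0.010 and 0.0026). In the chronic contrast 23.3% of 11460 genes were called, 10.7% higher and 12.6% lower, and Entpd1 was the only member called. With scaling by library size alone the higher share of all calls was 27.3%, in place of 45.8% with TMM. The chronic call was lost without chronic resident library b (-0.73, adjusted p = 0.071). The peak call was lost without peak resident library a (adjusted p = 0.075), peak resident library b (adjusted p = 0.054) or peak infiltrating library a (adjusted p = 0.13).

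Within microglia Entpd1 was not called at either stage. Control libraries held 307, 305 and 442 CPM, so that the 2 peak values and 2 of the 3 chronic values lay below the lowest control. The differences from control were -0.23 ± 0.24 at the peak (edgeR, adjusted p = 0.49) and -0.22 ± 0.21 in the chronic phase (edgeR, adjusted p = 0.44). Only with scaling by library size alone was the chronic one a call (-0.65, adjusted p = 0.017). Inside clusters, which were not tested, Entpd1 averaged 431 CPM in chronic EAE, against 323 CPM in control cells of cluster 1. In cluster 3 it averaged 294 CPM in control, 340 CPM in peak EAE and 404 CPM in chronic EAE. In cluster 4 it averaged 328 CPM in peak and 248 CPM in chronic EAE, against 201 CPM in 1 control library. The part of cluster shares in the class values was not tested. Monocytes held 171, 128 and 99.9 CPM in chronic EAE, against 128 and 131 CPM at the peak. Macrophages exceeded monocytes by 0.29 ± 0.09 (edgeR with library as a block, adjusted p = 0.042). That call was lost when any of the 5 libraries was left out, with adjusted p from 0.060 to 0.12. In the order of means microglia stood first (351 CPM in control, 308 CPM in chronic and 289 CPM in peak EAE), followed by macrophages (176 CPM in chronic and 149 CPM in peak EAE) and monocytes (133 CPM in chronic and 129.6 CPM in peak EAE), with no overlap between peak microglia and either neighbour.

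**Figure D3:**
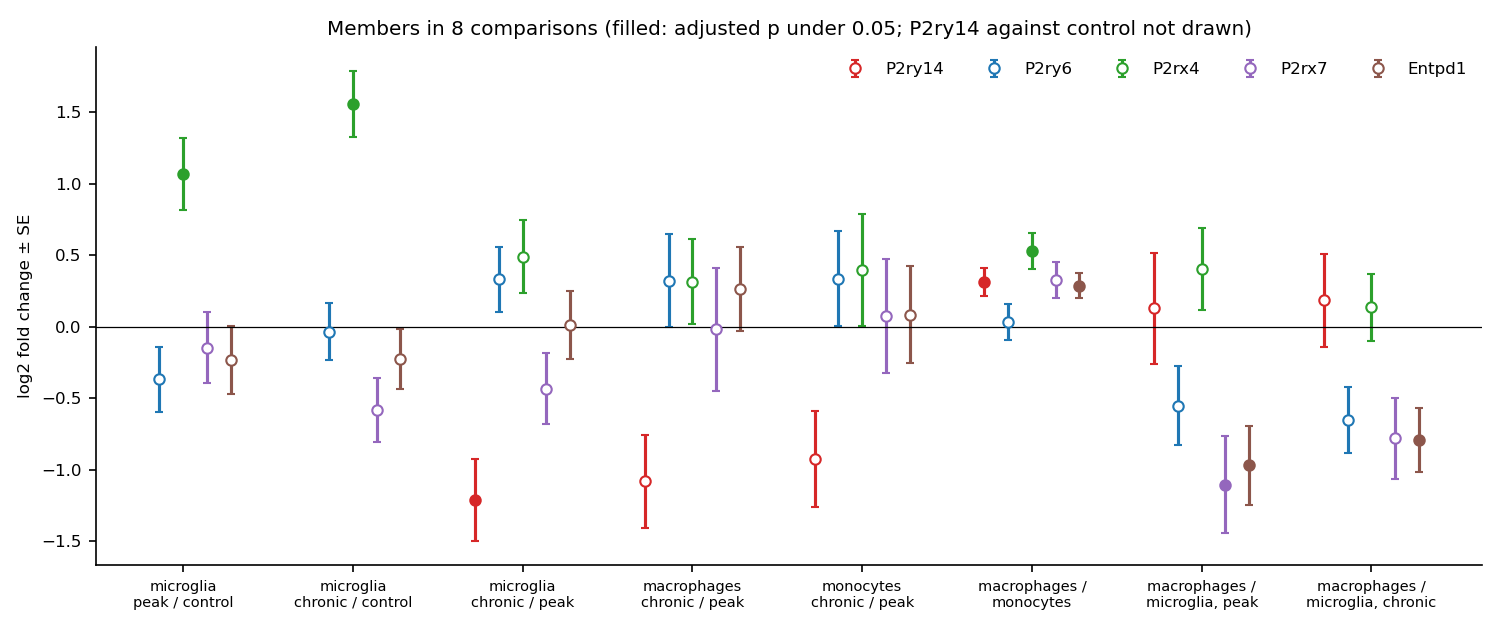
Log2 fold change with its SE (y axis) of the 5 genes in 8 comparisons (x axis), with filled symbols where the edgeR adjusted p was under 0.05. P2rx4 is higher in EAE microglia (1.07 and 1.56), P2ry14 is lower in chronic than in peak EAE microglia (-1.21), and Entpd1 is lower in macrophages than in microglia (-0.97 and -0.79).

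The gate made no difference that passed for any member in chronic EAE. Macrophages sorted as resident held P2ry14 at 65.6, 58.0 and 46.7 CPM, and those sorted as infiltrating at 61.2, 68.4 and 32.7 CPM (difference 0.13 ± 0.32; edgeR, adjusted p = 1.00). Microglia found in infiltrating libraries b and c held 54.6 and 37.2 CPM, and microglia of the resident gate 62.7, 49.7 and 34.0 CPM (difference 0.050 ± 0.33; edgeR, adjusted p = 1.00). With edgeR 0 genes were called in either contrast. At an unadjusted p under 0.05 there were 419 of 8703 genes in macrophages and 74 of 11154 in microglia, and DESeq2 called 37 and 0. Microglial markers were at 4403 to 6876 CPM in resident-gate macrophages, against 960 to 2934 CPM in infiltrating-gate macrophages, and their part in the values was not tested.

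The neighbours of P2ry14 on chromosome 3 did not follow its rise in EAE microglia. P2ry12, the ADP receptor by which microglia find damaged cells, fell to 282 and 228 CPM in peak EAE, against 2849.7, 1625 and 2491 CPM in control (-3.13 ± 0.34; edgeR, adjusted p = 9.8e-06). In chronic EAE it was at 528, 806 and 819.9 CPM, below every control (-1.73 ± 0.27; edgeR, adjusted p = 0.00033) and higher than at the peak (1.40 ± 0.31; edgeR, adjusted p = 0.0075). P2ry13, another ADP receptor, fell by 1.47 at the peak and by 2.18 in chronic EAE on the log2 scale (edgeR, adjusted p = 0.022 and 0.0011). Med12l, a homologue of a Mediator subunit, held 23.2, 35.9 and 26.0 CPM in control, 36.9 and 23.0 CPM in peak EAE and 11.7, 14.9 and 12.6 CPM in chronic EAE. Its chronic value was lower than control by -1.16 ± 0.24 (edgeR, adjusted p = 0.0029), and its peak value was not called. These genes overlap Med12l on opposite strands, and the sources used here do not state whether strand was used in counting.

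Infiltrating macrophages, in which P2ry14 was at 32.7 to 122 CPM, had little of P2ry12 and P2ry13. P2ry12 was at 14.3 and 9.74 CPM in macrophages at the peak, and P2ry13 at 14.4 and 23.4 CPM, both called lower than in microglia (-4.38 and -3.00; edgeR, adjusted p = 7.7e-05 and 0.0016). Gpr171, a G protein-coupled receptor gene at the end of the run, was seen in infiltrating cells. It was at 0 in all 3 control and both peak resident microglia sums, at 25.6 and 31.2 CPM in peak macrophages and at 49.1 and 84.9 CPM in peak monocytes.

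**Figure D4:**
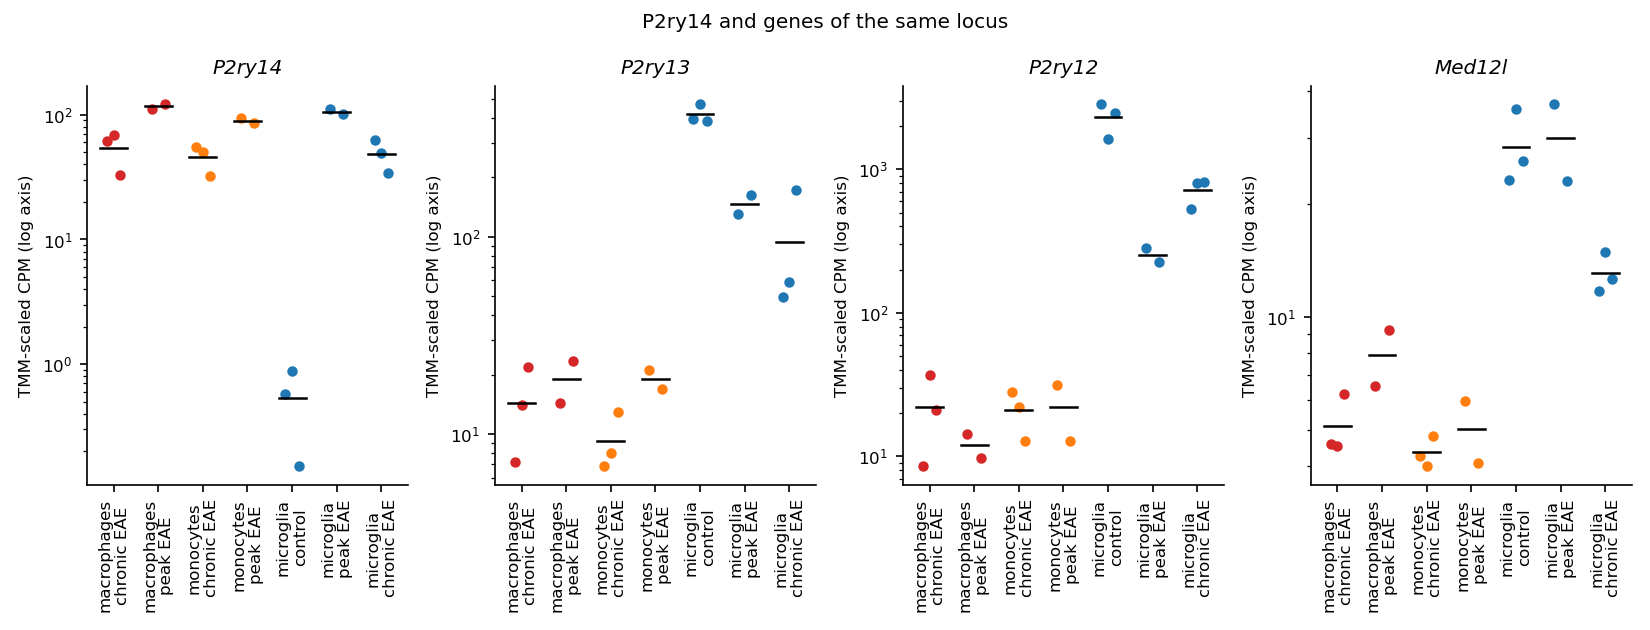
TMM-scaled CPM on a log axis (y axis) of P2ry14, P2ry13, P2ry12 and Med12l in each library (points) of 7 groups (x axis), with the group mean as a line. P2ry14 is at 0.536 CPM on average in control microglia, where P2ry12 is at 1625 to 2849.7 CPM, and both P2ry12 and P2ry13 are lower in EAE than in control microglia.

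Among the other P2Y receptor genes, 4 of 7 passed the filter on low counts in microglia. P2ry2, a receptor for ATP and UTP, was higher in peak EAE (2.59 ± 0.52; edgeR, adjusted p = 0.0017) and in chronic EAE (2.71 ± 0.46; edgeR, adjusted p = 0.00063), though it stayed low at 2.24 to 4.91 CPM in chronic EAE, against 0.45 to 0.76 CPM in control. P2ry10b, a P2Y-like gene, fell to 4.12 to 4.39 CPM in peak EAE and 3.17 to 10.5 CPM in chronic EAE, against 26.4 to 29.4 CPM in control. With P2ry12 and P2ry13, 1 was thus higher and 3 were lower in each EAE stage. Among all genes 16.2% were called higher and 13.1% lower at the peak, and 14.7% and 13.3% in the chronic phase. The median difference of the 4 was -2.08 at the peak and -1.89 in the chronic phase, beside 0.01 and -0.08 over all genes. Of the other P2X genes only P2rx1 passed the filter, and it fell in chronic EAE by 1.08 (edgeR, adjusted p = 0.017; DESeq2, adjusted p = 0.054).

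Genes of adenosine receptors, ectoenzymes and adenosine handling moved in both directions. Of the 4 adenosine receptor genes 2 were tested in microglia, with 1 higher and 1 lower at the peak and 1 higher in the chronic phase. Among all genes 29.3% were called at the peak and 28.1% in the chronic phase. Adora1, a receptor for the adenosine that CD39 and its partner enzymes yield, rose to 50.9 and 56.1 CPM in peak EAE and to 8.43 to 18.5 CPM in chronic EAE, against 0.38 to 1.64 CPM in control (5.80 ± 0.49 and 3.76 ± 0.48; edgeR, adjusted p = 1.1e-06 and 5.2e-05). Adora3, another adenosine receptor, fell to 65.0 and 87.6 CPM in peak EAE, against 121 to 136 CPM in control (-0.69 ± 0.22; edgeR, adjusted p = 0.030). Bst1, which encodes the NAD-consuming ectoenzyme CD157, rose to 20.9 and 38.8 CPM at the peak, against 0.08 to 0.23 CPM in control. The ectoenzyme and adenosine-handling list had 2 higher and 1 lower of 8 tested at the peak, beside 29.3% of all genes called. It had 3 higher and 1 lower of 8 in the chronic phase, beside 28.1%. In the chronic phase Cd38 (DESeq2, adjusted p = 0.15) and Slc29a3 (DESeq2, adjusted p = 0.051) were called by edgeR alone. Enpp1, which splits ATP, was among the higher ones at both stages (1.17 and 1.73; edgeR, adjusted p = 0.032 and 0.0017), although its peak call was lost with scaling by library size alone (adjusted p = 0.12).

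Of the listed genes that make, move or use UDP-sugars, the ligands of P2RY14, few were called in microglia. Among all genes 29.3% were called there at the peak and 28.1% in the chronic phase. At the peak 1 of 8 was higher in microglia, Uggt1, a glucosyltransferase of the endoplasmic reticulum (0.70 ± 0.24; edgeR, adjusted p = 0.042), and in the chronic phase 0 of 8 with edgeR or DESeq2, with 1 at an unadjusted p under 0.05. The Uggt1 call was lost with DESeq2 (adjusted p = 0.072) and with scaling by library size alone (adjusted p = 0.37). Ugp2, which makes UDP-glucose, was higher in infiltrating macrophages than in microglia at the peak (1.24 ± 0.27; edgeR, adjusted p = 0.0039) and in the chronic phase (1.22 ± 0.22; edgeR, adjusted p = 0.0011). It was the only one of the 8 called higher there, and Uggt2, a relative of Uggt1, was lower at both stages, at 0.582 and 0.974 CPM in macrophages against 2.79 and 2.85 CPM in microglia at the peak, and at 0 to 0.778 CPM against 2.16 to 5.07 CPM in the chronic phase (edgeR, adjusted p = 0.037 and 0.0028). Together they were 2 of 8, beside 26.4% and 23.3% of all genes called. Of 6 nucleotide release genes tested in microglia, 1 was higher and 2 were lower at the peak and 1 was higher in the chronic phase, beside 29.3% and 28.1% of all genes called. Panx1, a channel that releases ATP, was the only release gene called higher in EAE microglia (1.37 and 1.25; edgeR, adjusted p = 0.025 at both stages), and both calls were lost with scaling by library size alone (adjusted p = 0.092 and 0.10). The 2 lower ones were Lrrc8a, a volume-regulated anion channel subunit (-1.08 ± 0.31; edgeR, adjusted p = 0.016), and the connexin gene Gja1, also an astrocyte marker, which had 0 UMIs in both peak libraries, against 13 to 21 UMIs in control.

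The median difference of 10 listed inflammasome genes in peak EAE microglia was 0.54, beside 0.01 over all genes. Of the 10, 5 were called higher and 0 lower, beside 16.2% and 13.1% of all genes. They included Il1b (2.73 ± 0.52; edgeR, adjusted p = 0.0011), the pyrin-binding adaptor gene Pstpip1 (2.68 ± 0.41; edgeR, adjusted p = 0.00023) and Casp4 (1.38 ± 0.25; edgeR, adjusted p = 0.00092). In chronic EAE 2 were higher and 2 lower, beside 14.7% and 13.3% of all genes, with Nlrp3, the inflammasome sensor, at -0.71 ± 0.19 (edgeR, adjusted p = 0.013). In infiltrating macrophages 8 of the 10 were lower than in monocytes of the same libraries, beside 10.4% of all genes called lower. Il1b was lower by 1.44 and Nlrp3 by 0.52 on the log2 scale (edgeR, adjusted p = 0.00023 and 0.0067). Of those 8, Casp1, Casp4 and Il18 were not called by DESeq2. Against microglia, macrophages had more Il1b at the peak (3.92 ± 0.91; edgeR, adjusted p = 0.0061) and less Nek7, the NLRP3 partner that responds to potassium efflux (-0.95 ± 0.28; edgeR, adjusted p = 0.023).

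Receptors and ectoenzymes on macrophages differed from those on microglia. P2ry1, an ADP receptor, was at 3.64 and 5.36 CPM in peak macrophages, against 0 in both peak microglia sums. Adora3 was at 3.41 to 8.59 CPM in peak macrophages, against 65.0 to 87.6 CPM in peak microglia (-3.52 ± 0.45; edgeR, adjusted p = 8.2e-05). Cd38, which encodes an NAD-degrading ectoenzyme, was at 203 to 275 CPM in peak macrophages, against 0 to 0.40 CPM in peak microglia. Of the 4 adenosine receptor genes 2 were higher and 2 lower at each stage, and of 10 tested ectoenzyme and handling genes 4 were higher and 1 lower at each stage. Among all genes 12% were called higher and 14.4% lower at the peak, and 10.7% and 12.6% in the chronic phase.

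Over the 18 class sums of the 7 groups, the 6 genes most like P2ry14 among 5450 compared were Cd300lf, H2-K1, Il2rg, Hpse, Plaat3 and Xdh, by Pearson correlation of log2(CPM + 1), with r from 0.94 to 0.98. Cd300lf, an inhibitory myeloid receptor gene, was at 2.04 to 7.58 CPM in control, 241 to 339 CPM in peak EAE and 61.3 to 124 CPM in chronic EAE microglia. H2-K1, a class I antigen-presentation gene, followed at 357 to 652, 3986 to 5147 and 1944 to 2969 CPM. The sums of 1 class and stage share their pools and depth, so these values describe likeness across 18 points and carry no test. The 18 sums include the 3 of control microglia. Likeness to P2ry14 thus rests in part on the contrast that chose it, and nothing is read from it. For P2rx7 the most alike were Tgfbr2, Tubgcp5 and Ttc28 (r = 0.98 each), for P2rx4 Nceh1, C3ar1 and Paox (0.92 to 0.94), for P2ry6 Ptpra, Trim35 and Spg20 (0.94 to 0.96), and for Entpd1 Crybb1, Rasal3 and Bmp2k (0.94 each). Among the members, P2ry14 and P2rx4 had r = 0.76, and P2ry6, P2rx7 and Entpd1 had r of 0.78 to 0.82 with one another. Pairs across these sets were negative, with P2ry14 at -0.61, -0.58 and -0.53 and P2rx4 at -0.25, -0.48 and -0.31 with P2ry6, P2rx7 and Entpd1. From peak to chronic EAE the group means of P2ry14 and P2rx4 went opposite ways. In microglia P2ry14 went from 106 to 48.8 CPM and P2rx4 from 199 to 297 CPM, and macrophages and monocytes had the same directions.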

How the data were processed

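Single myeloid cells were sorted from spinal cord and sequenced with the 10x Genomics kit. The authors deposited UMI counts per gene and cell without normalization, and a cell table with library, pool, class, cluster, the log10 of each cell's UMI total and its percent of mitochondrial UMIs. Cell Ranger 3.1.0, R 4.1.3 and the builds GRCm38 and mm10 are named in the submitters' processing notes. Classes and clusters are the authors' own. The deposited table marks 0 cells as doublets, and no doublet caller was run here. A dense text table was not used here.

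UMI counts, as deposited, were summed per library and class (at least 20 cells) and tested with edgeR 4.0.16 in R 4.3.3 (filterByExpr, TMM, two-sided quasi-likelihood F test), with p-values adjusted by Benjamini and Hochberg's method across every gene in the fit. An adjusted p under 0.05 counted as a call, and SEs were derived from F. Residual degrees of freedom were 3 to 8. Tested on simulated data, edgeR called 40.8% of genes changed 2-fold for peak EAE against control microglia (10944 genes) and 11.1% for chronic against peak EAE macrophages (8100 genes). Alternatives were DESeq2 1.42.0, scaling by library size alone, no filter, sums of at least 50 cells, pool as a term, all cells, no block and each library left out. The labels call libraries biological replicates without naming animals, so p-values measure the spread between libraries.

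The members and gene lists were chosen with earlier results of these data known. Named are the 5 members, up to 4 called genes with the smallest p per list and comparison, the neighbours of P2ry14, and the 6 (P2ry14) or 3 (other members) genes of highest correlation at a mean of at least 20 CPM, without ribosomal, predicted and sex-linked marker genes. Other genes of the lists are named where a call was lost. RefSeq promoters matched 4 of 5 members by symbol.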

Additional observations from a re-analysis of the deposited data

Results flagged for a closer look

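Outside the microglia, macrophages and monocytes compared above, UMIs of P2ry14 and P2rx7 were counted in dendritic cells and T cells, above the limit that a count of 0 allows (3 UMIs over the group), a limit that covers counting error and not free RNA or doublets. Dendritic cells of the infiltrating gate gave P2ry14 at 10.6 unscaled CPM in chronic EAE (21 of 1976106 UMIs, exact 95% Poisson interval 6.58 to 16.2), against 102 in peak EAE (115 of 1130999 UMIs, interval 83.9 to 122). By library they were at 42.3, 8.84 and 2.90 TMM-scaled CPM in chronic EAE, against 130.4 and 34.6 in peak EAE, so the stages overlapped. The pooled peak value rests on library a, with 104 of the 115 UMIs, and library b alone gave 38.0 unscaled CPM. The same dendritic sums held monocyte markers at 1163 to 2850 CPM in chronic EAE, against 4090 to 4695 CPM in peak EAE.

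T cells of the infiltrating gate gave P2rx7 at 19.2 unscaled CPM in chronic EAE (10 of 520939 UMIs, interval 9.21 to 35.3), against 56.8 in peak EAE (93 of 1636323 UMIs, interval 45.9 to 69.6). By library they were at 14.7, 12.4 and 18.6 TMM-scaled CPM in chronic EAE, against 44.7 and 75.9 in peak EAE. Chronic T cells of the resident gate, with 48 of 875465 UMIs, were at 34.4, 58.4 and 38.8 TMM-scaled CPM and overlapped the peak values. In the peak T cells P2ry14 was at 4.89 and P2ry6 at 3.06 unscaled CPM, and monocyte markers were at 659 to 1335 CPM in chronic and 1912 to 2113 CPM in peak EAE T cells of that gate. The T cell sums also held natural killer cell markers, at 3967 to 6153 CPM in chronic and 3592 to 4044 CPM in peak infiltrating libraries. In chronic resident libraries these markers were at 942 to 2138 CPM. T cell markers were at 3677 to 4822, 3924 to 5381 and 3984 to 5068 CPM in the same order. The differences between stages, and the part of natural killer cells, free RNA or doublets in these values, were not tested.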

How the results depend on the processing

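Under the alternatives tried, 479 of 570 values of the 5 genes were counted as kept, and 73 of 114 counts of called genes stayed within 1.5 times. A value was kept if its sign and call held. P2ry14 in EAE against control, the contrast that chose it, carries no call but is among the 570. There a value was kept if its sign held and it moved by less than the SD of log2 CPM over the control libraries. Those P2ry14 values give no support. Sequencing pool as a term for macrophages against microglia was added after the data were seen. P2rx4 in chronic EAE against control microglia kept its sign under each alternative. It also kept its call under each, leaving aside pool as a term, which leaves 1 control library to that contrast. No paired analysis was possible because the deposited cell table does not link libraries to the replicate numbers of the labels. Groups of 2 or 3 libraries and the low counts of P2ry14 in control microglia limit what could be called, and the causes of the changes below were not tested.

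With scaling by library size alone the count of called genes became 5221 (3130 as reported above) for chronic EAE against control microglia, 1 (8 as reported above) for chronic against peak EAE monocytes and 1 (3 as reported above) for the stage difference in macrophages less that in microglia. With scaling by library size alone these log2 differences changed their call or sign: P2ry6 -0.70 for peak EAE against control microglia, P2rx7 -1.01 and Entpd1 -0.65 for chronic EAE against control microglia, Entpd1 -0.084 for chronic against peak EAE microglia, P2rx4 0.011 for infiltrating-gate against resident-gate microglia, P2rx7 -0.0099 for chronic against peak EAE monocytes, P2ry14 0.24, P2ry6 -0.035 and Entpd1 0.22 for macrophages against monocytes, P2ry14 -0.19 and P2ry6 -0.88 for macrophages against microglia at the peak, P2ry14 -0.091, P2ry6 -0.92, P2rx4 -0.13 and P2rx7 -1.07 for macrophages against microglia in the chronic phase. With sequencing pool as a term the count of called genes became 963 (3130 as reported above) for chronic EAE against control microglia. With sequencing pool as a term these log2 differences changed their call or sign: P2ry6 -0.68 and P2rx7 -0.79 for macrophages against microglia in the chronic phase. With no filter on low counts the count of called genes became 6 (0 as reported above) for infiltrating-gate against resident-gate microglia, 245 (1 as reported above) for chronic against peak EAE macrophages, 161 (0 as reported above) for resident-gate against infiltrating-gate macrophages, 205 (8 as reported above) for chronic against peak EAE monocytes and 49 (3 as reported above) for the stage difference in macrophages less that in microglia. With no filter on low counts these log2 differences changed their call or sign: P2ry6 0.012 for chronic EAE against control microglia, P2rx4 -0.0022 and Entpd1 -0.078 for resident-gate against infiltrating-gate macrophages, P2ry14 0.31 for macrophages against monocytes, P2rx7 -0.81 for macrophages against microglia in the chronic phase. With DESeq2 the count of called genes became 41 (1 as reported above) for chronic against peak EAE macrophages, 37 (0 as reported above) for resident-gate against infiltrating-gate macrophages, 56 (8 as reported above) for chronic against peak EAE monocytes and 34 (3 as reported above) for the stage difference in macrophages less that in microglia. With DESeq2 these log2 differences changed their call or sign: P2ry6 0.020 for chronic EAE against control microglia, Entpd1 -0.0032 for resident-gate against infiltrating-gate macrophages, P2ry14 0.30 and Entpd1 0.29 for macrophages against monocytes, P2ry6 -0.62 for macrophages against microglia in the chronic phase. Over all cells of the libraries these log2 differences changed their call or sign: P2rx7 -0.62 for chronic EAE against control microglia. Without the library block the count of called genes became 16 (1685 as reported above) for macrophages against monocytes. Without the library block these log2 differences changed their call or sign: P2ry14 0.29, P2rx4 0.51 and Entpd1 0.31 for macrophages against monocytes.

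When each library was left out in turn, counts of called genes ran over 1853 to 3300 for peak EAE against control microglia, 1686 to 4751 for chronic EAE against control microglia, 497 to 3350 for chronic against peak EAE microglia, 0 to 1 for infiltrating-gate against resident-gate microglia, 0 to 96 for chronic against peak EAE macrophages, 0 to 26 for resident-gate against infiltrating-gate macrophages, 0 to 135 for chronic against peak EAE monocytes, 897 to 1876 for macrophages against monocytes, 1239 to 3563 for macrophages against microglia at the peak, 1508 to 3119 for macrophages against microglia in the chronic phase and 0 to 25 for the stage difference in macrophages less that in microglia. For peak EAE against control microglia the log2 difference then ran over 0.93 to 1.18 (P2rx4) and -0.42 to 0.027 (P2rx7). For chronic EAE against control microglia the log2 difference then ran over -0.12 to 0.028 (P2ry6) and -0.72 to -0.44 (P2rx7). For chronic against peak EAE microglia the log2 difference then ran over -1.39 to -0.94 (P2ry14), 0.42 to 0.72 (P2rx4) and -0.019 to 0.094 (Entpd1). For infiltrating-gate against resident-gate microglia the log2 difference then ran over -0.49 to 0.26 (P2ry14), -0.42 to 0.088 (P2ry6), -0.44 to 0.19 (P2rx4), -0.73 to 0.082 (P2rx7) and -0.15 to 0.25 (Entpd1). For chronic against peak EAE macrophages the log2 difference then ran over -0.39 to 0.23 (P2rx7). For resident-gate against infiltrating-gate macrophages the log2 difference then ran over -0.10 to 0.34 (P2ry14), -0.41 to 0.0072 (P2ry6), -0.026 to 0.20 (P2rx4), -0.17 to 0.74 (P2rx7) and -0.11 to 0.16 (Entpd1). For chronic against peak EAE monocytes the log2 difference then ran over -0.11 to 0.25 (P2rx7) and -0.13 to 0.25 (Entpd1). For macrophages against monocytes the log2 difference then ran over 0.23 to 0.35 (P2ry14), -0.085 to 0.14 (P2ry6), 0.41 to 0.63 (P2rx4) and 0.23 to 0.34 (Entpd1). For macrophages against microglia at the peak the log2 difference then ran over -1.34 to -0.85 (P2rx7) and -1.06 to -0.89 (Entpd1). For macrophages against microglia in the chronic phase the log2 difference then ran over -0.024 to 0.43 (P2ry14), -0.89 to -0.53 (P2ry6), -0.035 to 0.26 (P2rx4), -1.11 to -0.55 (P2rx7) and -0.87 to -0.69 (Entpd1). For the stage difference in macrophages less that in microglia the log2 difference then ran over -0.19 to 0.30 (P2ry14), -0.34 to 0.017 (P2ry6) and -0.0072 to 0.56 (P2rx7).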
